A study of Mus musculus with 12 samples.

Results

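Described here are 10 genes of bone morphogenetic protein (BMP) signalling in mouse dermis: the ligands Bmp2, Bmp4 and Bmp6, the secreted antagonists Nog (Noggin) and Grem1 (Gremlin 1), the membrane pseudoreceptor Bambi, and the 4 Id genes (Id1, Id2, Id3 and Id4). They were chosen by mouse symbol, with no threshold and no contrast, but with the expression changes of these same 12 libraries already known. The adjusted p-values given for the 10 genes are therefore a description of the fit and support nothing by themselves. All 10 were found among the 55401 genes of the deposited table and passed the filter on low values.

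Gene expression was measured by RNA sequencing of poly(A) RNA from C57BL/6 mice aged 6 weeks, either wild type (WT) or lacking Cthrc1 (Cthrc1-/-), a gene for a secreted protein with a collagen triple helix repeat. Tissue labelled dermis was taken on day 0 or day 7 of a wounding experiment. This gave 4 groups of 3 libraries, 1 for each genotype on each day. The labels call the libraries biological replicates but do not say whether each came from 1 animal, and how the Cthrc1 allele was made is not given in the sources used here.

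BMPs are secreted ligands that bind paired receptor kinases, which phosphorylate Smad1, Smad5 and Smad9. These enter the nucleus with Smad4 and switch on target genes, of which the Id genes are among the best known. Id proteins lack a DNA-binding region and hold E proteins, a class of basic helix-loop-helix transcription factors, away from DNA. In skin, BMP signals keep hair follicle stem cells at rest, and Noggin binds BMPs outside the cell and permits hair growth to begin.

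Total counts per library ranged from 48329668 to 76938132. Cthrc1 itself checked the labels: it was between 21.1 and 106 FPKM (fragments normalised to transcript length and library size, as deposited) in the 6 WT libraries and at most 0.151 FPKM in the 6 Cthrc1-/- libraries. Markers of several tissues were present in what is labelled dermis. The summed level of 7 epidermal keratinocyte markers was between 2569 and 9660 FPKM per library, against 357 to 6509 FPKM for 7 fibroblast markers. Hair matrix and inner root sheath markers (11 of 12 in the list were matched) set the libraries apart most. Their sum was 14.05 to 17.1 FPKM in WT day 0, but 234, 4680 and 11480 FPKM in Cthrc1-/- day 0 replicates 1, 2 and 3. It was 1654 to 3871 FPKM in WT day 7 and 498 to 5202 FPKM in Cthrc1-/- day 7. WT day 7 replicate 1 stood apart by its leukocyte markers, whose sum was 1505 FPKM against 290 to 592 FPKM in the other WT day 7 libraries. Its epidermal keratinocyte sum of 2569 FPKM was the lowest of all 12 libraries, against 7398 and 9660 FPKM in the other WT day 7 libraries. The same library was the lowest of all 12 for Id1, Id3, Id4, Bmp2, Bmp6 and Grem1. The part of its make-up in these values was not tested. In bulk tissue, fewer cells of a type and less RNA per cell cannot be told apart.

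Promoters of 6 of the 10 genes (Id2, Id3, Id4, Bmp4, Bmp6 and Grem1) were in the RefSeq promoter table of build GRCm38.p6, and those of Id1, Nog, Bmp2 and Bambi were not matched. Those of Id2, Id3 and Bmp6 lie inside the gene as annotated in the deposited files' build, so the 250 bases before the start site are shown for the 3 whose stretch lies outside it. Id4 is the Id gene that did not pass in any comparison, Grem1 the antagonist with the widest spread, and Bmp4 the ligand whose order of groups differed from the others. Capitals mark GGCGCC, a GC-rich motif that BMP Smads can bind. The Id4 stretch is chr13:48260866-48261115 (plus strand), that of Grem1 is chr2:113758649-113758898 (minus strand) and that of Bmp4, which holds no such motif, is chr14:46390670-46390919 (minus strand).
Id4: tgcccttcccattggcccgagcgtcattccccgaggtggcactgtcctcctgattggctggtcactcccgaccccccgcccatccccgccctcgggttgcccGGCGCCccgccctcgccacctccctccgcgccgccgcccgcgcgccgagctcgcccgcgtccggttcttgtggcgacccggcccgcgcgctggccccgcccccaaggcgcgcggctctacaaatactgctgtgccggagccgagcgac
Grem1: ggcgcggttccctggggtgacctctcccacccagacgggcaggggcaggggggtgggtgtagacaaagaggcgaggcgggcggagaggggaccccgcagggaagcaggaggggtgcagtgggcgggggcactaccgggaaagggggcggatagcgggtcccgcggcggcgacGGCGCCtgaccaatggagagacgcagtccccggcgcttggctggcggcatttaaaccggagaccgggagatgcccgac
Bmp4: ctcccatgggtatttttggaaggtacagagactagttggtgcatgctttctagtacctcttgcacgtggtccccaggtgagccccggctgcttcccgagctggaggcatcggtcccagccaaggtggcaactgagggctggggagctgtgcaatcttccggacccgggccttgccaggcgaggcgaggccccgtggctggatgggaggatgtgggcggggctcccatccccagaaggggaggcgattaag

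GGCGCC was found in the Id2 stretch, starting 231 bases before the start site, in that of Id4 at 148 bases and in that of Grem1 at 78 bases. Among 32851 promoter stretches of the same length, 9.59% held it. The Smad palindrome GTCTAGAC was in none of the 6 stretches and in 0.167% of all. The E-box CANNTG, the site bound by E proteins, was at 196 bases before the start site of Id2, at 3 places in Bmp4 and at 2 in Bmp6, and 66.2% of all promoter stretches held at least 1. All 3 motifs read the same on both strands, and no match of one overlapped a match of another in the 6 stretches. A match of letters is a description of the sequence and no evidence of binding.

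The ligands are described first. Bmp2 (ENSMUSG00000027358, chromosome 2, 133552159 to 133562885, plus strand) encodes a BMP that acts through the type I and type II receptors. Its level was 17.0, 20.7 and 17.7 FPKM in WT day 0 replicates 1 to 3, and 13.9, 8.55 and 6.95 FPKM in Cthrc1-/- day 0. On day 7 it was 1.08, 3.70 and 5.34 FPKM in WT and 3.10, 3.69 and 4.02 FPKM in Cthrc1-/-. Thus every day 0 library lay above every day 7 library, and the 2 genotypes were apart on day 0 only. Bmp2 fell between days in WT by 2.69 on the log2 scale (SE 0.462, edgeR adjusted p 0.00779), that is 6.44-fold. Its log2 change was -1.62 (SE 0.445, edgeR adjusted p 0.0946) between days in Cthrc1-/- and -1.002 (SE 0.438, edgeR adjusted p 0.166) between genotypes on day 0, neither past the threshold of 0.05.

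Bmp4 (ENSMUSG00000021835, chromosome 14, 46383520 to 46390669, minus strand), a ligand that the dermal papilla of the hair follicle is known to make, followed another order. It was 6.03, 25.4 and 23.4 FPKM in WT day 0 replicates 1 to 3, so replicate 1 was far below the other two. In Cthrc1-/- day 0 it was 2.52, 3.54 and 3.33 FPKM. The day 7 values were 7.76, 14.2 and 15.1 FPKM in WT and 12.8, 9.27 and 12.2 FPKM in Cthrc1-/-. The 3 Cthrc1-/- day 0 libraries were thus the lowest of all 12, and the other 3 groups overlapped. Bmp4 was lower in Cthrc1-/- on day 0 by a log2 change of -2.66 (SE 0.463, edgeR adjusted p 0.0231), a 6.30-fold difference. Without WT day 0 replicate 1, the low WT library, the log2 change was -3.07. From day 0 to day 7 in Cthrc1-/- it moved by a log2 change of 1.71 (SE 0.448, edgeR adjusted p 0.0847), with all day 7 libraries above all day 0 libraries. In WT it was -0.78 (SE 0.437, edgeR adjusted p 0.245). Without WT day 0 replicate 1 this WT change was -1.20 and passed (edgeR adjusted p 0.0286). Genes annotated on the opposite strand overlap Bmp4 (Gm15222 and Gm15217), and whether the counting used strand is not given in the sources used here, but their counts reached at most 185 and 19 against at least 401 for Bmp4.

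Bmp6 (ENSMUSG00000039004, chromosome 13, 38345107 to 38500302, plus strand), a ligand known from skin and iron metabolism, did not separate the genotypes on day 0. It was 5.20, 5.33 and 5.40 FPKM in WT and 4.57, 5.48 and 4.91 FPKM in Cthrc1-/-. By day 7 it measured 1.45, 3.39 and 2.85 FPKM in WT and 4.01, 3.03 and 3.64 FPKM in Cthrc1-/-. It fell between days in WT by 1.26 on the log2 scale (SE 0.238, edgeR adjusted p 0.0114), and the log2 change in Cthrc1-/- was -0.64 (SE 0.235, edgeR adjusted p 0.183). Txndc5 overlaps Bmp6 on the opposite strand and held 3340 to 23039 counts per library against 392 to 1775 for Bmp6, so the Bmp6 counts are uncertain if strand was not used.

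Nog (ENSMUSG00000048616, chromosome 11, 89300638 to 89302332, minus strand) encodes Noggin, which wraps BMP2 and BMP4 and keeps them from their receptors. It was 5.68, 6.05 and 5.65 FPKM in WT day 0 and 2.75, 1.85 and 1.32 FPKM in Cthrc1-/- day 0. On day 7 it was 0.719, 0.632 and 0.623 FPKM in WT and 0.497, 0.478 and 0.687 FPKM in Cthrc1-/-. The order was WT day 0, then Cthrc1-/- day 0, then the day 7 groups, and the 2 day 7 groups overlapped while all other neighbours were apart. Nog fell between days in WT by 3.30 on the log2 scale (SE 0.323, edgeR adjusted p 0.00205), or 9.86-fold, and in Cthrc1-/- by 2.00 (SE 0.309, edgeR adjusted p 0.0216), or 4.01-fold. On day 0 it was lower in Cthrc1-/- by a log2 change of -1.64 (SE 0.302, edgeR adjusted p 0.0256), or 3.11-fold. The day 7 values rest on 63 to 85 deposited counts per library, the lowest counts among the 10 genes. With counts divided by 4 the 3 Nog calls were also made.

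Grem1 (ENSMUSG00000074934, chromosome 2, 113746164 to 113758646, minus strand) encodes Gremlin 1, a BMP antagonist made mainly by fibroblast-type cells. It was 20.1, 16.3 and 15.1 FPKM in WT day 0 but 13.3, 9.13 and 1.52 FPKM in Cthrc1-/- day 0 replicates 1 to 3. The day 7 values were 0.550, 2.80 and 5.33 FPKM in WT and 2.22, 6.94 and 2.03 FPKM in Cthrc1-/-. WT day 0 lay above the other groups, which overlapped one another. No change of Grem1 passed the threshold: the log2 change between days was -2.82 in WT (SE 0.899, edgeR adjusted p 0.0634) and that between genotypes on day 0 was -1.17 (SE 0.851, edgeR adjusted p 0.387). The WT change between days did pass with DESeq2 (adjusted p 0.00460) and with limma on log2(FPKM + 1) (adjusted p 0.0397). The spread of Grem1 in Cthrc1-/- day 0 ran with that of the fibroblast markers, whose sums were 2469, 1343 and 357 FPKM in replicates 1 to 3. In WT day 7 the order was the reverse, with fibroblast sums of 5328, 4794 and 3590 FPKM in replicates 1 to 3. The part of the fibroblast markers in the result was not tested.

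Bambi (ENSMUSG00000024232, chromosome 18, 3507923 to 3516404, plus strand) encodes a receptor-like membrane protein without a kinase that dampens BMP and TGF-beta signals. It was 4.86, 5.72 and 5.51 FPKM in WT day 0, and 3.92, 12.3 and 22.5 FPKM in Cthrc1-/- day 0 replicates 1 to 3. By day 7 it measured 6.01, 10.7 and 10.2 FPKM in WT and 9.30, 3.20 and 12.7 FPKM in Cthrc1-/-. Bambi passed the test in no contrast: its log2 change was 1.12 between genotypes on day 0 (SE 0.561, edgeR adjusted p 0.217) and 0.54 between days in WT (SE 0.556, edgeR adjusted p 0.540). The 2 libraries with the lowest hair marker sum in the Cthrc1-/- groups, day 0 replicate 1 at 234 FPKM and day 7 replicate 2 at 498 FPKM, were also the lowest for Bambi. The library with the highest hair marker sum, Cthrc1-/- day 0 replicate 3, was the highest for Bambi. Across genotypes the order did not hold. The WT day 0 libraries, with hair marker sums of only 14.05 to 17.1 FPKM, lay above those 2 Cthrc1-/- libraries for Bambi. The part of the hair markers in the result was not tested. The pseudogene Bambi-ps1 held 12 to 106 counts per library, against 1258 to 6098 for Bambi.

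**Figure D1:**
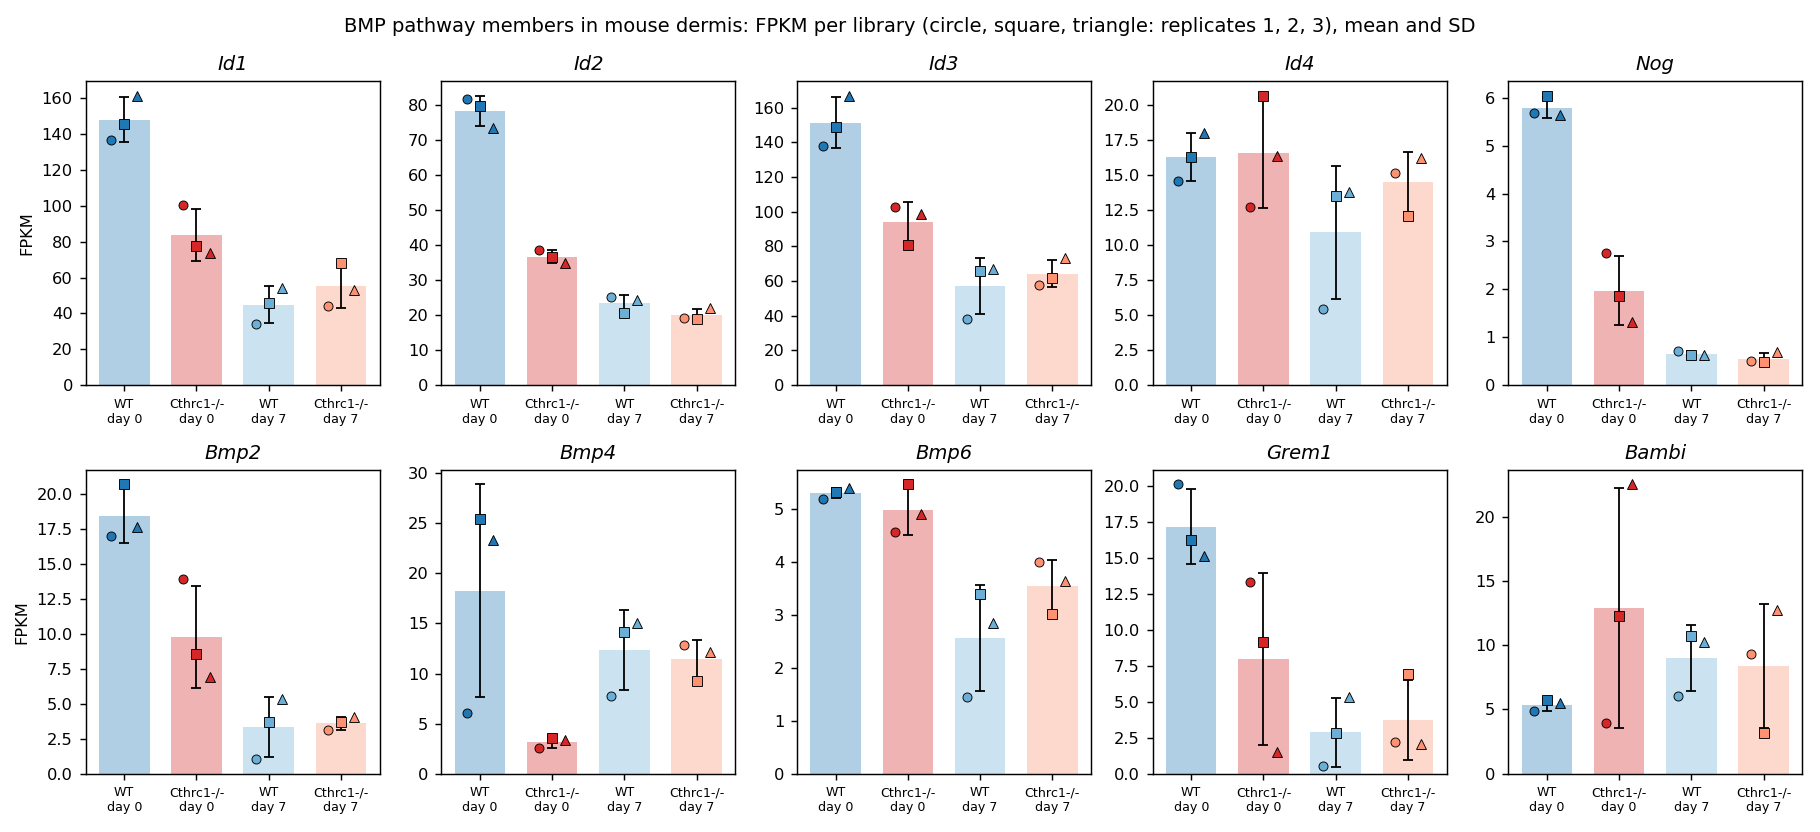
Each panel shows 1 gene, with FPKM on the vertical axis from 0 and the 4 groups on the horizontal axis. Bars are group means, error bars are SD (n = 3) and symbols are the libraries. Id1, Id2, Id3, Nog and Bmp2 step down from WT day 0 through Cthrc1-/- day 0 to the day 7 groups, while Bmp4 is lowest in Cthrc1-/- day 0.

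Id1, Id2 and Id3 were the members with the highest FPKM, and Id genes are the usual transcriptional readout of the pathway. Id1 (ENSMUSG00000042745, chromosome 2, 152736251 to 152737410, plus strand) was 137, 146 and 162 FPKM in WT day 0 and 101, 77.5 and 73.7 FPKM in Cthrc1-/- day 0. On day 7 it was 34.0, 45.8 and 54.4 FPKM in WT and 44.3, 68.3 and 53.1 FPKM in Cthrc1-/-. The 3 Cthrc1-/- day 0 libraries lay below all WT day 0 and above all day 7 libraries. Id1 fell between days in WT by 1.93 on the log2 scale (SE 0.211, edgeR adjusted p 0.00268), or 3.81-fold. On day 0 it was lower in Cthrc1-/- by a log2 change of -0.92 (SE 0.205, edgeR adjusted p 0.0386), or 1.89-fold.

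Id2 (ENSMUSG00000020644, chromosome 12, 25093799 to 25097140, minus strand) had the smallest SE of the 10 genes in each comparison. It was 81.8, 79.9 and 73.3 FPKM in WT day 0 and 38.6, 36.6 and 34.8 FPKM in Cthrc1-/- day 0. The day 7 values were 25.2, 20.7 and 24.3 FPKM in WT and 19.2, 18.8 and 22.1 FPKM in Cthrc1-/-. The 2 day 7 groups overlapped, and each of them lay below Cthrc1-/- day 0. Id2 fell between days by 1.92 on the log2 scale in WT (SE 0.142, edgeR adjusted p 0.00110), or 3.78-fold, and by 1.03 in Cthrc1-/- (SE 0.138, edgeR adjusted p 0.0191), or 2.04-fold. On day 0 it was lower in Cthrc1-/- by a log2 change of -1.20 (SE 0.139, edgeR adjusted p 0.00941), or 2.29-fold. That call was made in all 16 alternatives, and no other day 0 call of the 10 genes was made in all of its own.

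Id3 (ENSMUSG00000007872, chromosome 4, 136143497 to 136145755, plus strand) was close to Id1 in level. It was 138, 149 and 167 FPKM in WT day 0 and 103, 80.8 and 98.6 FPKM in Cthrc1-/- day 0. By day 7 it measured 38.3, 65.8 and 66.9 FPKM in WT and 57.8, 61.8 and 73.1 FPKM in Cthrc1-/-. The steps were those of Id1, with the day 7 groups overlapping. Id3 fell between days in WT by 1.62 on the log2 scale (SE 0.182, edgeR adjusted p 0.00272), or 3.07-fold, and was lower in Cthrc1-/- on day 0 by a log2 change of -0.80 (SE 0.179, edgeR adjusted p 0.0388), or 1.74-fold. In Cthrc1-/- the change from day 0 to day 7 was -0.70 on the log2 scale for Id3 (SE 0.179, edgeR adjusted p 0.0786) and -0.76 for Id1 (SE 0.205, edgeR adjusted p 0.0897), with no overlap of the days for either gene.

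Id4 (ENSMUSG00000021379, chromosome 13, 48261228 to 48266026, plus strand), also a partner of E proteins, gave another pattern. It was 14.6, 16.3 and 17.997 FPKM in WT day 0 and 12.7, 20.7 and 16.3 FPKM in Cthrc1-/- day 0. On day 7 it was 5.45, 13.5 and 13.8 FPKM in WT and 15.1, 12.1 and 16.2 FPKM in Cthrc1-/-. All neighbouring groups overlapped in the order of their means, although WT day 7 lay below WT day 0, and no change passed the threshold, the nearest being the log2 change of -0.80 between days in WT (SE 0.285, edgeR adjusted p 0.0852). Without WT day 7 replicate 1 that change was -0.41. Antisense transcripts annotated at Id4 reached at most 271 counts, against at least 1448 for Id4.

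The 4 Id genes together summed to 371 to 420 FPKM in WT day 0, 216 to 255 FPKM in Cthrc1-/- day 0, 103 to 160 FPKM in WT day 7 and 137 to 165 FPKM in Cthrc1-/- day 7. Id1 and Id3 made up most of this sum in every library. The share of Id4 ranged from 3.93% to 4.28% in WT day 0 and from 5.01% to 11.1% in the other groups.

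Between genotypes on day 0, 5 of the 10 genes were called lower in Cthrc1-/- (Id1, Id2, Id3, Nog and Bmp4) and 0 higher, against a background of 2.26% of the 14313 genes tested called lower, 3.51% higher and 5.78% in either direction. Their median log2 change was -0.96, against -0.05 over all genes tested. In 7 of the 10 genes all Cthrc1-/- libraries lay below all WT libraries, where 19.8% of all genes tested did. The calls other than that of Id2 were sensitive to the spread and the samples used. When only the day 0 groups were fitted, Id2 was the 1 of the 10 genes called (edgeR adjusted p 0.0454), in a fit that called 0.133% of all genes, and the adjusted p was 0.0820 for Id1, Id3 and Nog and 0.0855 for Bmp4. Over all genes, 154 and 238 were called without Cthrc1-/- day 0 replicate 2 or 3, against 827 in the main fit. The number was 48, 18 and 18 without WT day 0 replicate 1, 2 or 3, and 2146 without Cthrc1-/- day 0 replicate 1. Leaving out a single library also ended calls of the members, with edgeR adjusted p as follows. Without Cthrc1-/- day 0 replicate 2, it was 0.104 for Id1, 0.109 for Id3, 0.0740 for Nog and 0.0572 for Bmp4. Without Cthrc1-/- day 0 replicate 3, it was 0.0926 for Id1, 0.0881 for Id3 and 0.0556 for Bmp4. Without WT day 0 replicates 1, 2 or 3 in turn, it was 0.0973, 0.119 and 0.121 for Id1, 0.0925, 0.119 and 0.122 for Id3, and 0.0836, 0.101 and 0.0930 for Nog. For Bmp4 it was 0.0905 without WT day 0 replicate 2 and 0.0865 without replicate 3. Id1 and Id3 also missed the threshold with total-count scaling (edgeR adjusted p 0.0532 and 0.0778), with no filter on low values (edgeR adjusted p 0.0707 and 0.0790) and in the limma fit to FPKM with a pseudocount of 1 (adjusted p 0.0548 and 0.0806).

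The hair follicle markers moved with genotype on day 0, and their part in the result was not tested. Of 11 hair matrix and inner root sheath markers tested, 9 were called higher in Cthrc1-/- on day 0 and 0 lower. Krt25 and Krt73, keratins of the inner root sheath, were each at 0 in 1 library of WT day 0. Cthrc1-/- day 0 replicate 1 had by far the lowest hair marker sum of its group, at 234 FPKM. In that library Id2 was 38.6, Nog 2.75, Bmp4 2.52, Id1 101 and Id3 103 FPKM, each below every WT day 0 library. Without that library the log2 change on day 0 was -1.27 for Id2, -1.99 for Nog, -1.11 for Id1 and -0.90 for Id3. Bmp4, unlike these, was lowest of its group in that library. Its log2 change ran from -3.07 to -2.35 over the fits without 1 day 0 library. Fibroblast marker sums were 357 to 2469 FPKM in Cthrc1-/- day 0 against 4893 to 6509 FPKM in WT day 0, with 1 of 7 markers called lower. The sums of 4 other lists were also lower in every Cthrc1-/- day 0 library than in any of WT day 0, with 0 of their markers called. They were 74.7 to 106 against 143 to 183 FPKM for adipocyte, 71.5 to 188 against 249 to 269 FPKM for leukocyte, 19.8 to 59.3 against 71.9 to 76.1 FPKM for endothelial and 57.8 to 226 against 257 to 597 FPKM for skeletal muscle markers. Dermal papilla marker sums overlapped on day 0, at 66.6 to 82.7 FPKM in WT and 70.2 to 81.6 FPKM in Cthrc1-/-. Most of that sum was Crabp1. Of the 8 papilla markers, 2 were called higher in Cthrc1-/- and 0 lower. The log2 change was above 0 for 4 of the 8, with a median of 0.11. The part of these lists in the result was not tested.

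**Figure D2:**
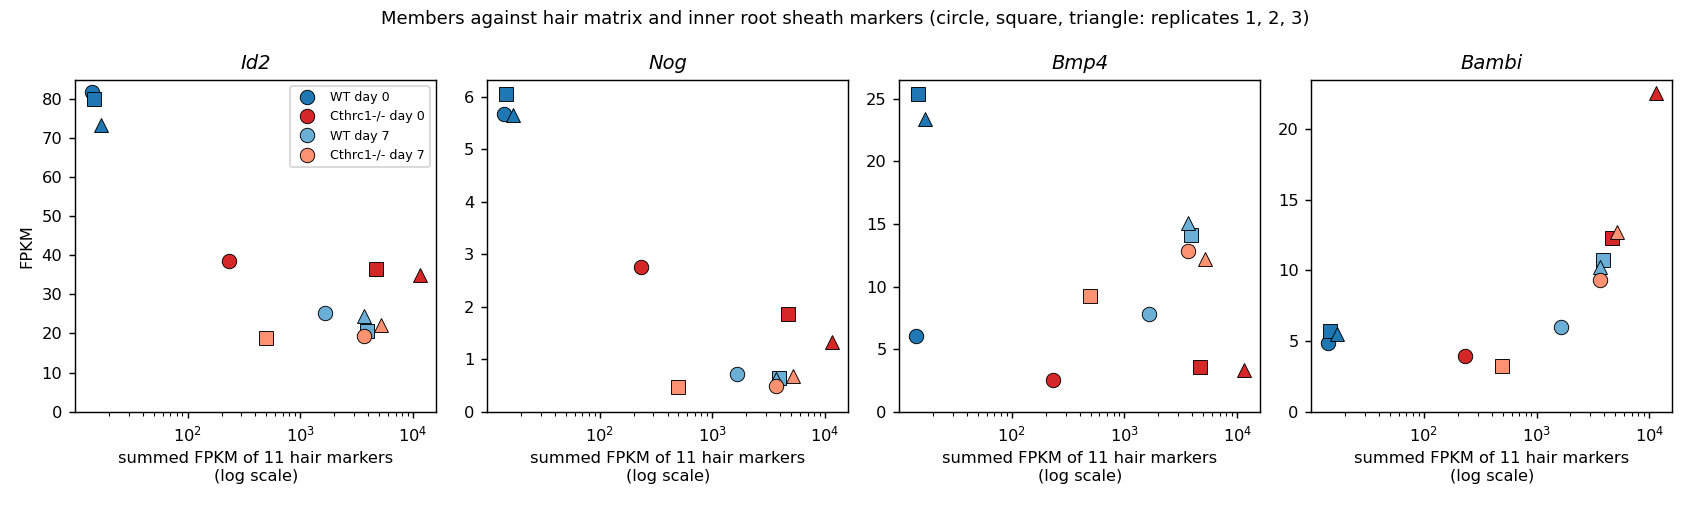
Each point is 1 library, with the summed FPKM of 11 hair markers on a log axis and the FPKM of Id2, Nog, Bmp4 or Bambi on a linear axis from 0. Cthrc1-/- day 0 replicate 1, at a hair sum of 234 FPKM, lies near the other Cthrc1-/- day 0 libraries for Id2 and Bmp4, and the 3 WT day 0 libraries at 14.05 to 17.1 FPKM stand apart for Id2 and Nog.

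On day 7 the genotypes did not separate in any of the 10 genes. All 10 overlapped between WT and Cthrc1-/-, where 6.46% of all genes tested lay wholly higher and 2.67% wholly lower in Cthrc1-/-. Of the 10, 0 were called by edgeR (background 0.021%) or by DESeq2 (background 0.433%), and 1 had an unadjusted p under 0.05, where 5.46% of all genes did. That gene was Id2, whose log2 change was -0.31 (SE 0.137, edgeR adjusted p 0.907). The other log2 changes lay between -0.34 for Nog (SE 0.301) and 0.42 for Bmp6 (SE 0.235). The median was 0.09 over the 10 genes and -0.01 over all genes tested.

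Between day 0 and day 7 in WT, 6 of the 10 genes fell and 0 rose: Id1, Id2, Id3, Nog, Bmp2 and Bmp6. The background was 7.1% of genes called lower, 6.04% higher and 13.1% in either direction. Each of these 6 calls was made in each alternative that tested the gene, among them every fit without 1 library. In 8 genes all day 7 libraries lay below all day 0 libraries, against 14.1% of all genes tested, and in Bambi they lay above, against 29.8%. The median log2 change was -1.77 over the 10 genes and -0.00185 over all genes. With total-count scaling the median over all genes was 0.20 and the calls over all genes went from 864 higher and 1016 lower to 1669 higher and 543 lower, and the same 6 members were called lower. Adipocyte markers fell over the same interval, with all 5 tested called lower, and 9 of 11 hair markers were called higher, and their part in the result was not tested.

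In Cthrc1-/-, 2 of the 10 genes fell between days, Id2 and Nog, and 0 rose, against a background of 0.601% called lower, 0.859% higher and 1.46% in either direction. In 6 genes all day 7 libraries lay below all day 0 libraries, against 4.99% of all genes tested, and in Bmp4 they lay above, against 21.5%. The median log2 change was -0.75, against -0.01 over all genes. With total-count scaling the latter was 0.16 and the calls over all genes went from 123 higher and 86 lower to 649 higher and 98 lower. Id2 and Nog were then called lower and Bmp4 higher (edgeR adjusted p 0.0455). DESeq2, which called 9.84% of all genes here, called 6 of the 10, namely Id1, Id2, Id3, Nog and Bmp2 lower and Bmp4 higher. The calls of Id2 and Nog were both lost when replicate 2 of Cthrc1-/- day 0 was left out, with an edgeR adjusted p of 0.0684 for Id2 and 0.0732 for Nog. Leaving out replicate 1 of the day 7 group gave 0.0727 and 0.105, and leaving out its replicate 2 gave 0.0547 and 0.0763. Each of these fits without 1 library called 5 of all 14313 genes tested, against 209 in the main fit. With only the compared groups fitted, Nog was at 0.0941. Over the same interval the marker sums in Cthrc1-/- went from 19.8 to 59.3 FPKM to 104 to 173 FPKM for endothelial and from 71.5 to 188 FPKM to 381 to 404 FPKM for leukocyte markers. Fibroblast sums were 357 to 2469 FPKM on day 0 and 2260 to 3502 FPKM on day 7. The log2 change was above 0 for 6 of 6, 7 of 7 and 6 of 7 markers of these lists, with 0 called, and their part in the result was not tested. The comparisons of day and of genotype share the day 0 groups, so their values for these genes are not independent of each other.

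The interaction of genotype and day, which tests the difference of the 2 changes over time, was called for 0 of the 10 genes by edgeR (background 0.014%), while 5 had an unadjusted p under 0.05, where 15.1% of all genes did. These were Id1, Id2, Id3, Nog and Bmp4, with log2 values from 0.89 for Id2 (SE 0.194, edgeR adjusted p 0.171) to 2.49 for Bmp4 (SE 0.624, edgeR adjusted p 0.193). DESeq2, which called 4.76% of all genes here, called 4 of them: Id1 (adjusted p 0.0145), Id2 (0.00268), Id3 (0.0432) and Bmp4 (0.00904). Leaving out 1 library changed the edgeR call: Id1 passed at an edgeR adjusted p of 0.0492 when replicate 1 of Cthrc1-/- day 0 was left out, and Bmp4 at 0.0318 when replicate 1 of WT day 0 was. Over all genes those fits called 242 and 4, against 2 in the main fit.

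**Figure D3:**
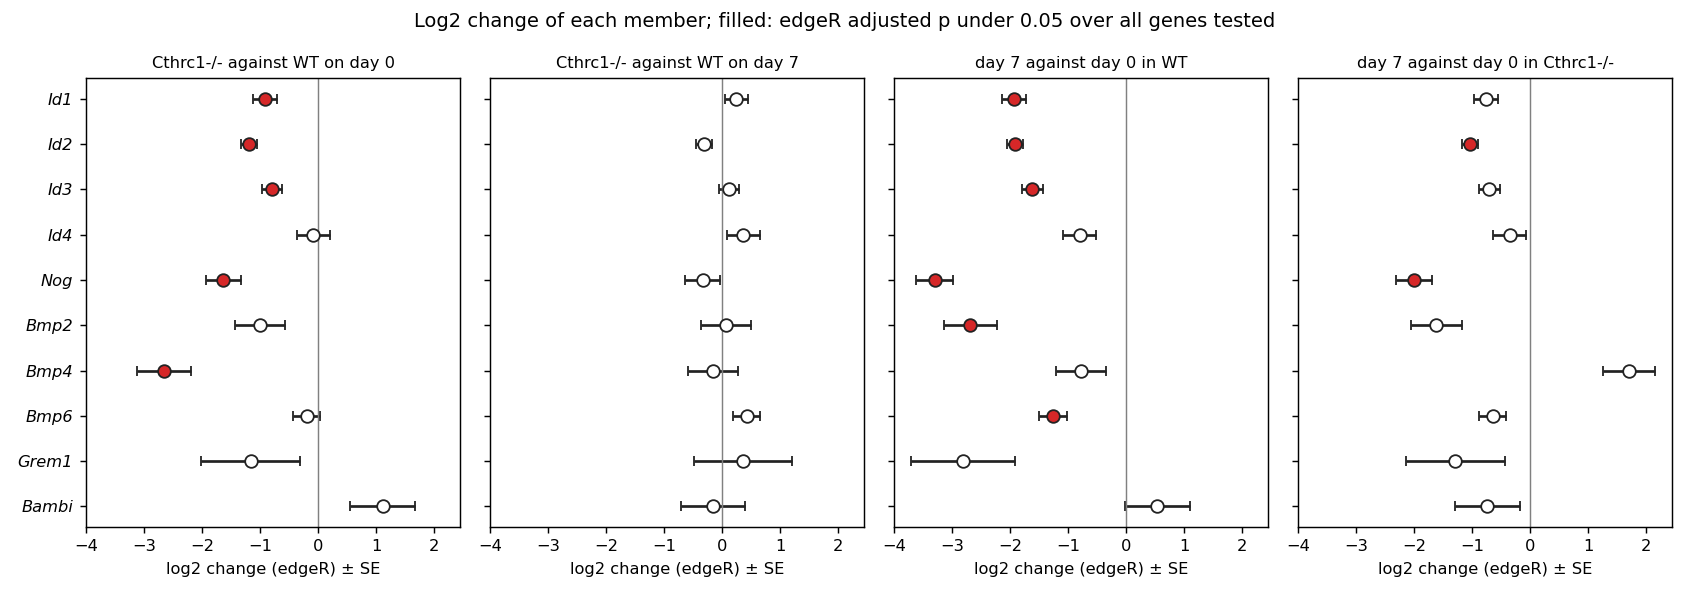
Points are log2 changes of the 10 genes from the edgeR fit and bars are SE, with 1 panel per comparison and a line at 0. Filled points passed an adjusted p under 0.05 over all genes tested: 5 genes for genotype on day 0, 0 on day 7, 6 between days in WT and 2 between days in Cthrc1-/-.

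Other genes of the pathway were taken from a list set by role, 53 in number, of which 39 passed the filter on low values. On day 0, 4 of the 39 were called between genotypes, 3 higher and 1 lower in Cthrc1-/-, or 10.3% against the background of 5.78%. The median log2 change of the 39 was -0.40. Dlx3, a homeobox factor of the hair matrix that BMP signals induce, was 3.41 to 4.12 FPKM in WT and 11.4 to 211 FPKM in Cthrc1-/- (log2 change 4.53, SE 0.934, edgeR adjusted p 0.0329). Msx2, another homeobox target of BMP and also one of the hair markers here, was 1.72 to 2.74 FPKM in WT and 4.63 to 60.3 FPKM in Cthrc1-/- (log2 change 3.62, SE 0.875, edgeR adjusted p 0.0447). In the same comparison Id1, Id2 and Id3 were lower. Of the other target factors in the list, Dlx5, Hey1 and Atoh8 had log2 changes of -1.16, -0.87 and -0.83. Those of Msx1 and Runx2 were 1.43 and 0.46. None of these other factors was called (edgeR adjusted p 0.155, 0.0977, 0.0544, 0.154 and 0.180 in that order). They were named after their values were seen. Smad1, a transducer of BMP signals, was 6.32 to 6.74 FPKM in WT and 8.67 to 10.9 FPKM in Cthrc1-/- (log2 change 0.50, SE 0.111, edgeR adjusted p 0.0381). Tcf4, one of 3 E proteins in the list, was 0.824 to 3.66 FPKM in WT and 0.429 to 0.747 FPKM in Cthrc1-/- (log2 change -2.15, SE 0.504, edgeR adjusted p 0.0420). No ligand (2 tested), receptor or co-receptor (8 tested) or antagonist (12 tested) was called on day 0. Their median log2 changes were 0.50, -0.11 and -0.68 in that order, against -0.05 over all genes tested. All 4 calls were lost when only the day 0 groups were fitted (edgeR adjusted p 0.0830 to 0.101), and in the same way without Cthrc1-/- day 0 replicate 2 or 3 or without WT day 0 replicate 1 or 3 (edgeR adjusted p 0.0670 to 0.137). Without Cthrc1-/- day 0 replicate 3, the library with the highest level of both, the log2 change was 3.48 for Dlx3 and 2.55 for Msx2. Without WT day 0 replicate 2 the calls of Dlx3, Msx2 and Smad1 were lost (edgeR adjusted p 0.119 to 0.149). The fits without 1 library named here called 18 to 238 of all 14313 genes tested, against 827 in the main fit.

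Between days in WT, 9 of the 39 were called, 3 higher and 6 lower on day 7, or 23.1% against the background of 13.1%. Of the 7 target transcription factors 6 were called, 3 in each direction. Dlx3 rose to 36.7 to 103 FPKM (log2 change 4.09, SE 0.914, edgeR adjusted p 0.0202) and Msx2 to 7.26 to 26.6 FPKM (log2 change 2.97, SE 0.851, edgeR adjusted p 0.0461). Runx2, a transcription factor known from bone formation, rose from 0.748 to 0.981 FPKM to 2.11 to 2.86 FPKM (log2 change 1.41, SE 0.215, edgeR adjusted p 0.00616). Dlx5, a homeobox factor, fell from 6.13 to 6.95 FPKM to 0.452 to 3.00 FPKM (log2 change -2.11, SE 0.506, edgeR adjusted p 0.0256). Fst, which encodes the activin and BMP binding protein follistatin, fell from 19.0 to 23.7 FPKM to 9.19 to 10.7 FPKM (log2 change -1.31, SE 0.316, edgeR adjusted p 0.0266). Tcf12, an E protein, had a log2 change of -1.25 (SE 0.308, edgeR adjusted p 0.0284). The other 3 called genes were Hey1, Crim1 and Atoh8, with log2 changes of -1.14, -1.07 and -0.99 (edgeR adjusted p 0.0346, 0.0278 and 0.0201), which were named after their values were seen. Runx2 was called in all 15 of its alternatives. The other 8 lost their calls without WT day 0 replicate 2 or 3 (edgeR adjusted p 0.0540 to 0.138), and 7 of them, all but Tcf12, without WT day 0 replicate 1 (0.0584 to 0.135). Without WT day 7 replicate 1, 2 or 3, calls were lost for 5, 6 and 3 of the 9 (edgeR adjusted p 0.0597 to 0.0937). Over all genes, 688, 527 and 570 were called without WT day 0 replicate 1, 2 or 3, against 1880 in the main fit. The numbers without WT day 7 replicate 1, 2 or 3 were 1195, 947 and 2043. On day 7, 0 of the 39 were called between genotypes by edgeR (background 0.021%) or DESeq2 (background 0.433%), and 6, or 15.4%, had an unadjusted p under 0.05 in edgeR, where 5.46% of all genes did. Between days in Cthrc1-/-, 1 of the 39 was called (2.56% against 1.46%), the BMP type I receptor gene Acvr1, with a log2 change of -0.54 (SE 0.114, edgeR adjusted p 0.0495) that was lost in 12 of 16 alternatives. In the interaction 0 were called by edgeR (background 0.014%) and 5 by DESeq2 (background 4.76%), and 9, or 23.1%, had an unadjusted p under 0.05 in edgeR, where 15.1% of all genes did.

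**Figure D4:**
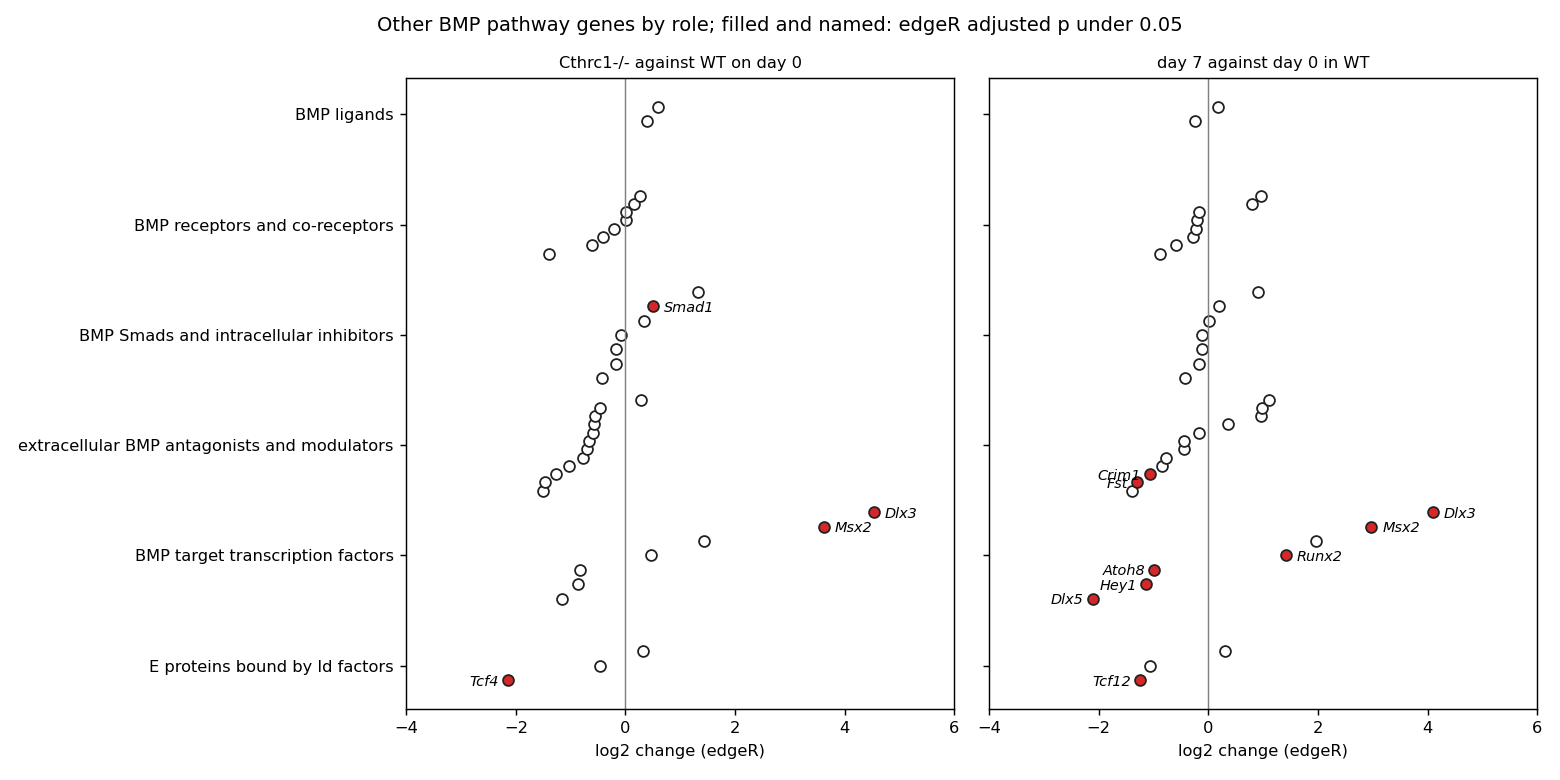
Points are log2 changes (horizontal axis) of the 39 other BMP pathway genes by role (rows), for genotype on day 0 at left and for days in WT at right, and filled points passed an edgeR adjusted p under 0.05. The target transcription factors spread widest, from Dlx5 at -2.11 to Dlx3 at 4.09 between days in WT.

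The genes whose pattern was most like that of each member were found by Pearson's r of log2(FPKM + 1) over the 12 libraries, among 7219 genes with a mean of at least 5 FPKM, leaving out the members and genes with only a Gm or Rik name. The libraries are shared by all pairs and fall into 4 groups, and r is given as a description. Hes1, a Notch target gene, was first for Id3 (r 0.985) and second for Bmp2 (r 0.988) and Id1 (r 0.969). Its group means were 76.5, 46.7, 23.2 and 26.9 FPKM, given as WT and then Cthrc1-/- on day 0, followed by WT and then Cthrc1-/- on day 7. Hexim1, an inhibitor of transcription elongation, was first for both Nog (r 0.979) and Id2 (r 0.958), with means of 140, 42.0, 23.9 and 25.9 FPKM in the same order. Aldh2 was first for Id1 (r 0.972), Mib2 second for Id3 (r 0.983), Tubb4b second for Id2 (r 0.951), Atp6v0e2 second for Nog (r 0.968) and Eml2 first for Bmp2 (r 0.988). Scin and Clstn1 were most like Grem1 (r 0.985 and 0.975), Clic3 and Efna3 most like Id4 (r 0.957 and 0.949), and Ccdc91 and Hipk3 most like Bmp6 (r 0.971 and 0.955). For Bambi the nearest were Unc5b and Rnaset2b (r 0.975 and 0.958), which were also highest in Cthrc1-/- day 0 by group mean, at 21.15 and 35.5 FPKM. For Bmp4 the highest were Agpat2 and Hsdl1, at r 0.883 and 0.866.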

How the data were processed

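Gene counts and FPKM for the 12 libraries are used as deposited by the authors. The submitters' processing notes name cutadapt 1.9, HISAT2 2.0.4, UMI-tools, StringTie 1.3.4d, DESeq2, edgeR and build GRCm38. Per the labels' protocols the libraries were stranded with UMIs. The annotation release and counting settings are not given in the sources used here. A count of 0 is listed as an FPKM of 0.0001 and was set to 0. Low counts pile up at multiples of 4, so counts divided by 4 were an alternative.

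The 14313 of 55401 genes whose FPKM averaged 1 or more, all 10 members among them, were fitted to the deposited counts with edgeR 4.0.16 (TMM, quasi-likelihood, 4 groups, 12 libraries) in R 4.3.3. P-values were adjusted over all genes by Benjamini-Hochberg, with a threshold of 0.05. DESeq2 1.42.0, limma 3.58.1 on log2(FPKM + 1 or 0.1), other filters and scalings, the compared groups alone, a replicate block and leaving out each library were alternatives. If replicates were technical, p-values measure that spread only.

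The members and lists were chosen with earlier results of these data known. Named genes are all members, the 2 genes most like each member, and up to 6 called pathway genes with the largest change per comparison. Genes of the pathway list beyond these were named after their values were seen, as the text says. Only the main edgeR fit for genotype on day 0 was run on simulated counts, drawn with the dispersions that edgeR estimated here. The outcome of that run is not given, and it is not used as support for any call. The other comparisons and methods were not run on simulated data.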

Additional observations from a re-analysis of the deposited data

How the results depend on the processing

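Over the 10 members, 775 of 840 values from alternatives kept their direction and side of the threshold, 38 lost the call, 16 gained one and 11 changed sign, all 11 of values that were not called. On day 0 the Id4 log2 change between genotypes was 0.0035 and 0.0044 with limma (pseudocounts 0.1 and 1), 0.023 with total-count scaling, 0.052 without Cthrc1-/- replicate 1 and 0.0038 without WT replicate 3. On day 7, leaving out WT replicate 1 gave -0.063 for Id3, -0.34 for Bmp2 and -0.13 for Grem1. The ranges without 1 library ran from -0.30 to 0.052 for Id4 on day 0 and, on day 7, from -0.063 to 0.22 for Id3, -0.34 to 0.51 for Bmp2, -0.46 to 1.09 for Grem1 and -0.57 to 0.23 for Bambi. Leaving out Cthrc1-/- replicate 3 gave -0.0051 for Bmp2, and leaving out Cthrc1-/- replicate 2 gave -0.46 for Grem1 and 0.23 for Bambi.

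Counts of genes called moved more. For genotype on day 0 (827), they were 2787 with DESeq2, 508 with a mean FPKM of at least 5, 275 with no filter, 19 with the compared groups alone and 18 to 2146 without 1 library. With total-count scaling the calls were 523 higher and 209 lower, against 503 and 324. On day 7 (3), they were 62 with DESeq2, 5 and 8 with limma (pseudocounts 0.1 and 1) and 0 to 4 without 1 library. Between days in WT (1880), they were 3551 with DESeq2 and 527 to 2043 without 1 library. Between days in Cthrc1-/- (209), they were 1409 with DESeq2, 773 and 775 with limma, 89 with the compared groups alone, 747 with total-count scaling and 5 to 522 without 1 library. For the interaction (2), they were 681 with DESeq2, 1 and 4 with limma, 0 with a mean FPKM of at least 5, 1 with no filter, 1 with total-count scaling and 0 to 242 without 1 library.

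In the pathway list, calls on day 0 (4) were 10 with DESeq2, 1 and 0 with limma, 1 with no filter, 0 with the compared groups alone and 0 to 12 without 1 library. On day 7 they were 0 throughout. Between days in WT (9), they were 5 with a mean FPKM of at least 5 and 1 to 7 without 1 library. Between days in Cthrc1-/- (1), they were 0 with counts divided by 4, 6 with DESeq2, 3 and 2 with limma, 0 with no filter, 3 with total-count scaling and 0 to 2 without 1 library. For the interaction (0), they were 5 with DESeq2 and 0 to 1 without 1 library. The cause of these moves was not tested. Filters also changed the number of genes tested, and a fit without 1 library held fewer libraries.

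The replicate numbers are not stated to pair the libraries. Deviations of log expression from the group mean were correlated between libraries of different groups. For same-numbered libraries r ran from -0.232 to 0.426 (5 of 18 above 0.1). For differently numbered libraries r ran from -0.453 to 0.520 (6 of 36 above 0.1). With the replicate block, 883, 2, 1467, 291 and 1 genes were called for genotype on day 0 and day 7, days in WT, days in Cthrc1-/- and the interaction, and 7 of the pathway list on day 0. Of the members' calls, that of Id1 on day 0 had an edgeR adjusted p of 0.0506 under the block and the others passed. Counts were lowest for Nog, at 63 to 85 per library on day 7.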
